A study of Homo sapiens with 6 samples.

Results

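The spliceosome is built on small nuclear ribonucleoproteins (snRNPs), particles of 1 small nuclear RNA (snRNA) and a set of proteins, and the genes described here encode the core proteins of these particles. They were taken by name: every protein-coding gene of GENCODE release 29 whose symbol begins with SNRP or with LSM and a digit, and SNRNP70, SNRNP25, SNRNP27, SNRNP35 and SNRNP48. The rule gave 30 genes, and all 30 were found among the 58302 genes of the tables of all 6 samples. RNA-seq had been made from SK-N-BE(2), a human neuroblastoma cell line with amplified MYCN, after transfection for 72 h, according to the labels, with a control siRNA (the group labelled NC, siNC in the study's methods, n = 3) or with an siRNA against Prp19 (the group labelled siPrp19, n = 3). Prp19, encoded by PRPF19, is the ubiquitin ligase of a protein complex that joins the spliceosome as it is activated. Both groups came from 1 cell line, so the spread among samples is that between cultures of this line and not that between tumours. The comparison asks whether mRNA levels of snRNP core genes differed after PRPF19 knockdown. Since bulk RNA was measured, fewer expressing cells and less RNA per cell cannot be told apart.

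The snRNAs U1, U2, U4, U5, U11, U12 and U4atac each carry a ring of Sm proteins, which in the cytoplasm is loaded by the SMN complex before the particle returns to the nucleus. U6 and U6atac carry a related LSm ring instead, and its close variant with LSM1 in place of LSM8 works in the cytoplasm, where it promotes removal of the mRNA cap. In U7, the snRNP of histone mRNA 3′ end processing, LSM10 and LSM11 take the places of SNRPD1 and SNRPD2. Each snRNA also binds proteins of its own, such as SNRNP70, SNRPA and SNRPC on U1 and SNRPA1 and SNRPB2 on U2. Cells of the nervous system also use SNRPN, a relative of SNRPB from an imprinted region of chromosome 15, in the Sm ring.

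SNRPB and SNRPN encode alternative proteins for 1 place in the ring, so their sequences are shown to make clear how far the reads of either gene can be assigned. Over 693 aligned coding bases the 2 genes were 81.7% identical, and the longest run without a difference was 32 bases. The 60-base coding stretch in which they were most alike differs at 2 bases, shown in capitals. It lies in exon 2 of 7 of SNRPB (chr20:2467609-2467668, minus strand) and in exon 5 of 10 of SNRPN (chr15:24975448-24975507, plus strand), in GRCh38 coordinates of GENCODE 29, and is coding base 94 to 153 of either gene.
SNRPB: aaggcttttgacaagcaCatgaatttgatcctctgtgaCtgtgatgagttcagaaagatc
SNRPN: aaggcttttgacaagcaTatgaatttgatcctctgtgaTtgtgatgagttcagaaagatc
The stretch in which they were least alike differs at 16 of 60 bases, again in capitals. It lies in exon 5 of SNRPB (chr20:2463103-2463162) and in exon 8 of SNRPN (chr15:24977843-24977902), at coding bases 486 to 545.
SNRPB: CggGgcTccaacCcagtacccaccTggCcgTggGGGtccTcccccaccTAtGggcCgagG
SNRPN: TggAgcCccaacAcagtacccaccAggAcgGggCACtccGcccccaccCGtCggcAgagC
Of all 100-base windows of the SNRPN transcript, 63.8% also occur in transcripts annotated to another gene, chiefly SNURF, which shares its locus, and 33.6% of the exon bases of SNRPN are also exon bases of a gene on the same strand. SNURF itself had 1.41 ± 0.456 FPKM (SD, n = 3) in NC samples. FPKM, fragments per kilobase of exon after scaling between samples, is the unit of every level given here. The median ratio of a sample's values to their geometric mean over samples was 1.00736 in every sample. The scaling was thus not to mapped fragments alone.

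Promoters of 250 bases before and 50 bases after the start were listed by RefSeq (GRCh38.p14) for 25 of the 30 genes. LSM1, LSM6, LSM14A, SNRPD1 and SNRNP35 were not matched. CGGAAG, the core of the site of ETS-family factors, was found on either strand in 11 of 25 promoters (44.0%), and in 19.9% of all 27305 promoters of this length. GGGCGG, the GC box, was found in 64.0% of the member promoters and in 44.6% of all, and CCAAT in 48.0% and 35.7%. TATAAA was found in 4.0% and 12%. The median number of CG dinucleotides was 24 per member promoter and 14 over all promoters. These shares describe letters in a window and show no binding. For the Sm ring genes whose CGGAAG lies before the start with flanks, the 30 bases around it are printed on the gene's strand, with the match or its reverse complement in capitals, to show where it lies. The SNRPB line holds CGGAAG itself and the other two its reverse complement. SNRPB (chr20:2470812-2470841), SNRPD2 (chr19:45692362-45692391) and SNRPG (chr2:70293491-70293520) all lie on the minus strand.
SNRPB: agtgagctggacCGGAAGtaggtttctacc
SNRPD2: aggtccatgcccCTTCCGgatgtaggcagg
SNRPG: acttcatttcttCTTCCGgtccgaggtcgc

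The libraries held between 19058782 and 24181789 reads on genes. Along the first principal component (49.9% of the variance) replicate 3 of either group stood apart, at 48.6 and 49.5, from the other 4 samples, at −40.1 to −8.2. PRPF19 had 53.1, 53.1 and 64.9 FPKM in NC and 21.8, 28.5 and 33.6 FPKM in siPrp19 samples, so it was reduced to 49.0% of the control mean and the groups did not overlap. Even so, it was not called in limma without a block for the replicate number (adjusted p 0.9999) or with the block (limma adjusted p 0.19). A missed threshold in those fits therefore does not show that a gene was unchanged. PRPF19 was called in limma with the block and a mean of at least 5 FPKM (adjusted p 0.0176) and in limma voom with the block (adjusted p 1.57e-12). All 8 adrenergic neuroblastoma markers were present, with summed levels of 2011 to 2129 FPKM in NC and 1897 to 2438 FPKM in siPrp19 samples. Among them DBH differed by replicate, with 26.7 to 44.2 FPKM in replicates 1 and 2 and 3.49 and 3.94 FPKM in replicate 3. Of 8 mesenchymal or stromal markers, 6 reached a mean of 1 FPKM, with sums of 137 to 197 FPKM in NC and 126 to 160 FPKM in siPrp19 samples, while PRRX1 had 0.484 to 0.889 FPKM and COL1A2 was close to 0. SNAI2, FOSL1, FN1 and CD44 of this list were lower in 3 of 3 pairs and called in limma voom with a block for the replicate number (adjusted p 0.00226, 0.000163, 1.17e-05 and 0.0363). Of the blood markers, PTPRC and CD68 were close to 0, but HBB had 15.4, 2.94 and 1.89 FPKM in NC and 3.10 and 1.51 FPKM in siPrp19 samples 1 and 2, and was listed at 0 in the third (limma voom with block, adjusted p 3.38e-05). These markers were called in the same fit as LSM12 below, and their part in its change was not tested.

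All 30 genes were expressed, and 24 of them lay above 7.60 FPKM, the median over the 11297 protein-coding genes tested. Their own median in NC was 25.9 FPKM, and 9 belonged to the highest 10% of protein-coding genes, above 32.9 FPKM. Between 115 and 7214 reads stood behind each value. FPKM divides by the union of all annotated exons, which was up to 5.46 times as long as the main coding transcript (SNRNP35), so a gene with long alternative exons has a lower FPKM than its transcript would give. Where the order of genes depends on the scale, levels per transcript length are given too.

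In the Sm ring, SNRPE was the highest, at 93.7, 108 and 112 FPKM in NC and 89.0, 107 and 106 FPKM in siPrp19 samples. SNRPD2 (71.6 ± 5.14 FPKM in NC) and SNRPB (70.8 ± 5.21) came next and did not differ beyond their spread per exon union. SNRPD3 had 49.3 ± 5.84, SNRPG 41.6 ± 13.6 and SNRPF 31.2 ± 7.87 FPKM, so that these neighbours overlapped in their spread. SNRPD1, whose protein is needed in each ring as much as that of SNRPD2, was listed at only 8.89 ± 2.48 FPKM. SNRPN was the lowest, at 2.22, 1.92 and 2.26 FPKM in NC and 1.71, 2.07 and 2.00 FPKM in siPrp19 samples. The 8 genes thus spanned 48.9-fold per exon union and 29.2-fold per transcript length. On the latter scale SNRPD2 (164 FPKM) and SNRPE (163 FPKM) led. SNRPG (119.5 ± 39.0 FPKM) followed, and SNRPB (78.4 ± 5.76 FPKM) lay well below SNRPD2 there. SNRPD1 stayed at 8.89 FPKM, since its union and its main transcript have the same length. The main transcript was chosen by annotation and not by expression. That of SNRPD1 has 4909 bases, 357 of them coding, and which of these bases were expressed was not tested.

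The LSm ring spanned 14.0-fold. LSM4 had 57.7, 49.2 and 80.5 FPKM in NC and 59.7, 47.5 and 83.3 FPKM in siPrp19 samples, and LSM7 51.6 ± 6.01 FPKM in NC. LSM2 followed with 31.8 ± 4.64 FPKM. LSM3 (9.49 ± 1.41), LSM1 (10.2 ± 2.42), LSM5 (7.65 ± 0.762) and LSM6 (6.62 ± 1.98) lay close together. LSM8, the subunit that makes the ring a U6 ring, was lowest, with 3.67, 4.11 and 5.57 FPKM in NC and 3.55, 3.83 and 5.05 FPKM in siPrp19 samples. Per transcript length, LSM7 was the highest of all 30 genes (166 FPKM), LSM8 stood at 21.2 FPKM and LSM3, at 9.49 FPKM, was the lowest of the ring. The annotated transcript used for LSM3 has 3815 bases, 306 of them coding, and which of these bases were expressed was not tested.

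Among the genes for proteins of single particles, SNRNP70 and SNRPC of U1 had the highest FPKM per exon union. SNRNP70, which binds the first stem-loop of U1, had 47.9, 51.3 and 54.8 FPKM in NC and 49.9, 51.5 and 62.1 FPKM in siPrp19 samples. SNRPC, which supports recognition of the 5′ splice site, had 49.3 ± 4.48 FPKM in NC, and SNRPA 27.6 ± 3.05. The U2 genes SNRPB2 (32.8 ± 3.22) and SNRPA1 (27.4 ± 3.06) were near each other on this scale, whereas per transcript length SNRPA1 (95.4 FPKM) lay above SNRPB2 (53.8), SNRPC (74.8) and SNRPA (40.2), and below SNRNP70 (150.0). SNRNP27 of the U4/U6.U5 tri-snRNP had 11.4, 14.2 and 10.8 FPKM in NC and 10.1, 13.0 and 12.2 FPKM in siPrp19 samples. The genes of the minor spliceosome were lower per exon union. SNRNP25 had 7.70 ± 1.92, SNRNP48 6.51 ± 1.63 and SNRNP35 4.22 ± 0.966 FPKM in NC. Per transcript length, however, SNRNP35 stood at 23.1 FPKM, above SNRNP27 (15.3), LSM10 (18.9) and LSM12 (18.0). LSM10 and LSM11 of U7 had 10.7 ± 4.19 and 5.70 ± 1.98 FPKM. The 3 LSm-domain proteins outside the rings were LSM14B (32.1 ± 3.19), LSM14A (24.4 ± 3.90), both found in translationally repressed mRNPs, and LSM12 (14.8 ± 1.59).

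**Figure D1:**
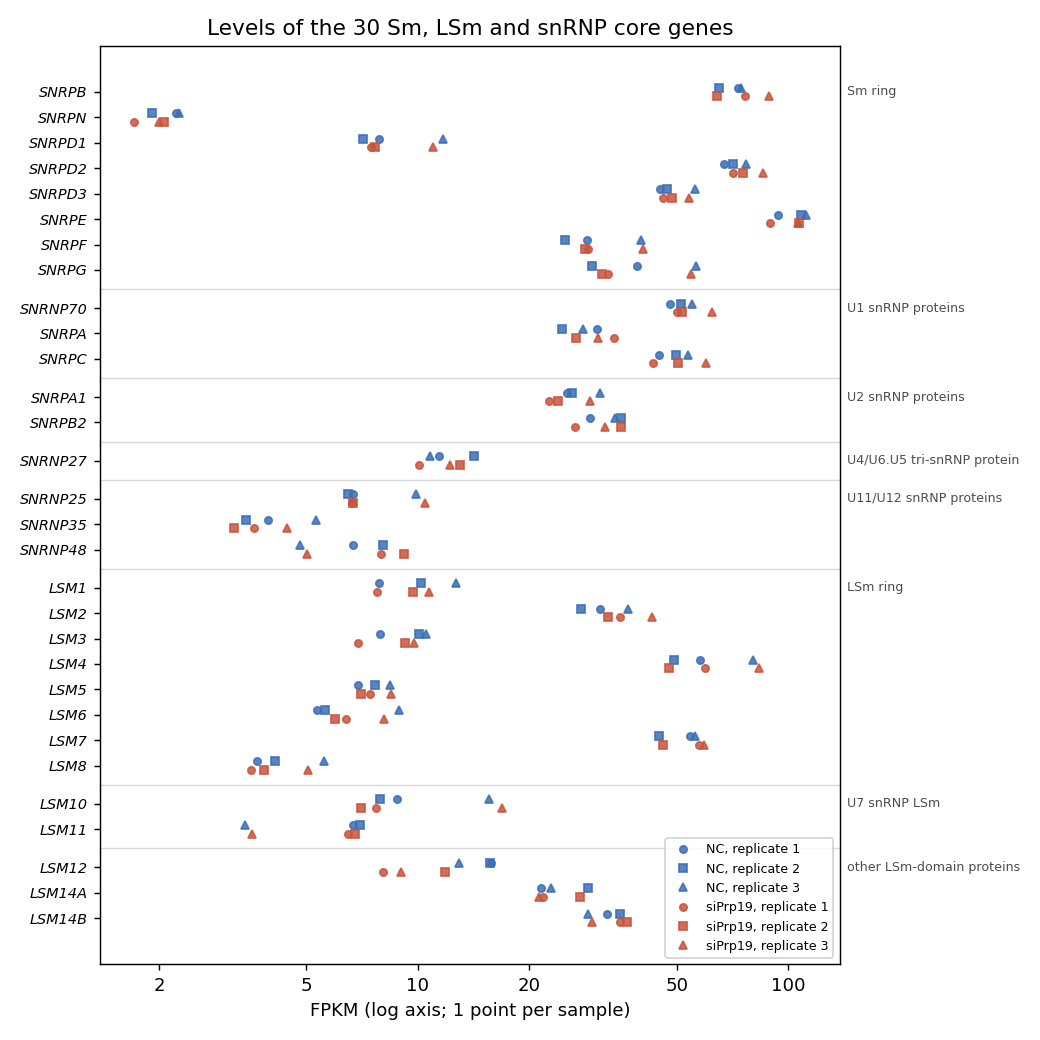
FPKM (log axis) of the 30 genes in each of the 6 samples, grouped by role, with NC in blue and siPrp19 in red and a symbol for each replicate number. Within most genes the colours overlap, while LSM12 has its 3 siPrp19 samples at 8.06 to 11.9 FPKM, below the NC samples at 12.9 to 15.8 FPKM.

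After PRPF19 knockdown, LSM12 was the 1 gene of the set called as lower in any fit, namely in some of those that paired the samples. The log2 changes of the other 29 ran from −0.16 to 0.21 with none past the threshold. LSM12 is a cytoplasmic LSm-domain protein known as a partner of ataxin-2. It had 15.8, 15.7 and 12.9 FPKM in NC and 8.06, 11.9 and 9.01 FPKM in siPrp19 samples, and the groups did not overlap. The siPrp19 mean was 65.2% of the NC mean (1.54-fold lower, log2 change −0.63, SE 0.18), and the 3 same-numbered pairs gave −0.96, −0.40 and −0.52. Without a block for the replicate number, limma called no gene at all at an adjusted p under 0.05 (0 of 14462, 0%; 225 genes, 1.56%, at an unadjusted p under 0.05), and LSM12 had an unadjusted p of 0.0104 and an adjusted p of 0.9999. With the replicate block it had an adjusted p of 0.197 in limma, where again 0% of the 14462 genes were called (2265, or 15.7%, at an unadjusted p under 0.05). When the block was fitted to only those 7913 genes whose mean reached 5 FPKM, 1.57% of genes were called and LSM12 was among them (limma adjusted p 0.0469). On the reads recovered from the FPKM values, limma voom with the block called 7.57% of 14432 genes, and 1 of the 30 members (3.33%), again LSM12 (adjusted p 1.78e-05). In limma voom with the block, the log2 change was −0.47 without pair 1, −0.75 without pair 2 and −0.67 without pair 3. LSM12 was called each time (adjusted p 0.00229, 1.23e-08 and 1.75e-10 in that limma voom fit). With a pair left out, little spread of the gene itself remains, so these p-values rest mainly on the spread pooled over genes.

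LSM12 has a near copy that shares its reads. LSM12P1, a processed pseudogene, is 588 bases long and identical to LSM12 at all 588 aligned bases, which hold the whole coding sequence of 585 bases. Of all 100-base windows of the LSM12 transcript, 22.1% occur in LSM12P1, so a read from within the coding sequence matches both genes. LSM12P1 was listed at 14.3, 34.0 and 19.3 FPKM in NC and 24.2, 31.2 and 18.6 FPKM in siPrp19 samples, which rest on 183 to 382 reads. Its pair differences were 0.76, −0.12 and −0.05, and the groups overlapped. How reads that match several places were counted is not given in the sources used here, and the part of the copy in the change of LSM12 was not tested beyond the sum that follows. When its reads were added to those of LSM12, the sum per LSM12 length was 18.7, 22.8 and 17.0 FPKM in NC and 13.1, 18.4 and 12.9 FPKM in siPrp19 samples. The siPrp19 mean was then 76.0% of the NC mean, and the pair differences were −0.51, −0.31 and −0.40. The summed value was lower in all 3 pairs, but the groups overlapped, and the change shrank to −0.40 (SE 0.19, limma without block, unadjusted p 0.0717). Limma with the block alone did not call the sum (adjusted p 0.188). Limma with the block and a mean of at least 5 FPKM called it (adjusted p 0.0367). In limma voom with the block it remained past the threshold (adjusted p 0.000315). This sum was chosen after the values had been seen.

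**Figure D2:**
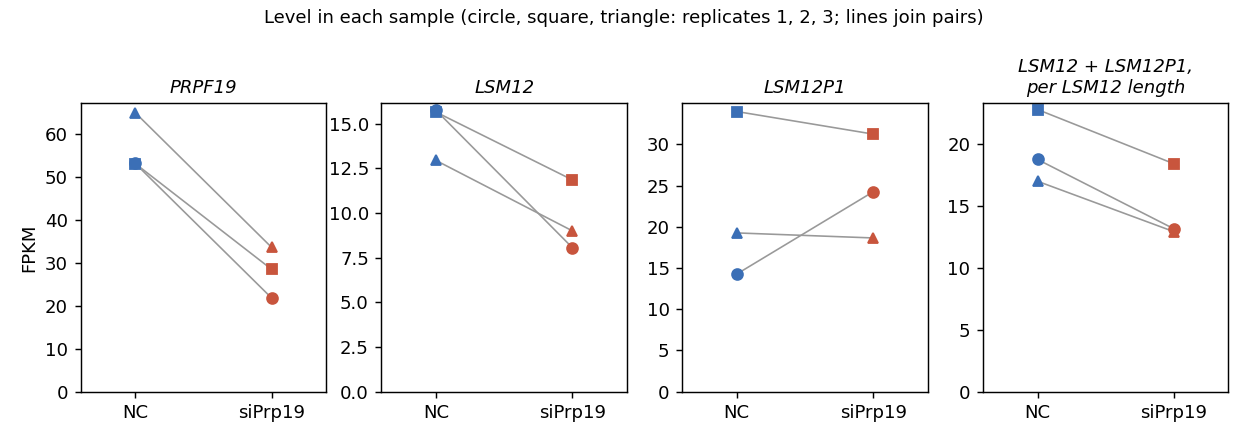
FPKM (linear axes from 0) of PRPF19, LSM12, its processed pseudogene LSM12P1 and the sum of the last 2 per LSM12 length, in each sample, with lines joining same-numbered pairs. PRPF19, LSM12 and the sum fall in all 3 pairs, whereas LSM12P1 goes from 14.3 up to 24.2 FPKM in pair 1.

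Counted by pairs, 7 of the 30 genes were lower with siPrp19 in 3 of 3 pairs (23.3%), beside 21.3% of the 14462 genes tested, and 8 were higher in 3 of 3 (26.7%), beside 19.2%. After correction for GC content and length, 7 were lower, beside 20.8% of genes, but only 4 were higher (13.3%), beside 21.1%. With a log2 difference over 0.1 asked of each pair, a limit chosen after the values had been seen, 3 were lower (10%), beside 8.16%, and 2 higher (6.67%), beside 7%. Of the members, 1 (LSM12) had every siPrp19 sample below every NC sample, beside 2.84% of all genes, and 0 had every siPrp19 sample above, beside 2.77%. LSM12 was also the 1 member past a 1.5-fold change in the limma fit (background 4.12%) and the 1 member past 1.2-fold (3.33%, beside 16.4% of genes). With the reads of LSM12P1 added, its log2 change of −0.40 was not past 1.5-fold, and its groups overlapped. The median log2 change was −0.01 for the members and −0.004 over all genes tested, and the median absolute change was 0.07 and 0.10.

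The most positive difference was that of LSM2, a subunit of both LSm rings. It had 31.0, 27.6 and 36.8 FPKM in NC and 35.1, 32.6 and 42.8 FPKM in siPrp19 samples, so that the groups overlapped, but the 3 pair differences were close to each other, at 0.18, 0.24 and 0.22 on the log2 scale. It did not pass the threshold in any fit. The limma voom fit with the block gave an adjusted p of 0.0733 and limma with the block 0.202, with a 95% interval of 0.10 to 0.32. LSM3, another ring subunit, had pair differences of −0.19, −0.12 and −0.11, with 7.88, 10.1 and 10.5 FPKM in NC and 6.89, 9.24 and 9.74 FPKM in siPrp19 samples (limma with block, adjusted p 0.31). The other LSm ring genes had log2 changes between −0.11 and 0.07.

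In the Sm ring the log2 changes ran from −0.14 to 0.11 and none passed the threshold. SNRPB had 73.0, 64.9 and 74.6 FPKM in NC and 76.4, 64.1 and 88.9 FPKM in siPrp19 samples. SNRPD2 had 66.8, 71.0 and 77.0 FPKM in NC and 71.0, 75.3 and 85.5 FPKM in siPrp19 samples, with pair differences of 0.09, 0.08 and 0.15. Both groups of values overlapped in each gene. Summed over the 8 Sm ring genes, the level was 356, 354 and 429 FPKM in NC and 353, 364 and 442 FPKM in siPrp19 samples, so the replicates differed more than the groups did. Over the 16 genes of both rings, the 95% intervals of limma with the block lay within −0.49 and 0.32, which corresponds to a fall to 0.712 of the control level and a rise of 1.25-fold at the most extreme. Larger changes of a ring gene are outside the intervals of this fit, which cover the spread among these samples only. Each interval is that of a single gene, with no allowance for reading 16 together. In limma without the block the intervals were wider, such as −0.81 to 0.66 for SNRPG and −0.62 to 0.65 for LSM4.

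Of the U1 genes, SNRPA had nearly equal pair differences of 0.15, 0.13 and 0.13 on the log2 scale, with 30.5, 24.4 and 28.0 FPKM in NC and 33.9, 26.7 and 30.7 FPKM in siPrp19 samples, but it missed the threshold (limma with block, adjusted p 0.253). SNRPA1, a U2 protein that holds SNRPB2 on the snRNA, had 25.3, 26.1 and 30.9 FPKM in NC and 22.6, 23.8 and 29.1 FPKM in siPrp19 samples (adjusted p 0.294 in limma with block). Correction for GC content and length took the log2 change of SNRPA from 0.14 to 0.08 and that of SNRPA1 from −0.13 to −0.07. A 22.2% share of its 100-base windows occurs in AL078621.1, a sequence copy listed at 16.6 FPKM on average, and with those reads added the mean pair difference was still −0.13. SNRPB2 had 29.2, 35.3 and 33.9 FPKM in NC and 26.5, 35.3 and 31.9 FPKM in siPrp19 samples. None of these groups was separate from the other.

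Among the minor spliceosome genes, SNRNP48 had the second largest positive difference, with 6.67, 8.05 and 4.81 FPKM in NC and 7.93, 9.19 and 5.03 FPKM in siPrp19 samples. SNRNP35 had 3.93, 3.44 and 5.30 FPKM in NC and 3.60, 3.18 and 4.42 FPKM in siPrp19 samples, lower in all 3 pairs. SNRNP25 had 6.70, 6.50 and 9.91 FPKM in NC and 6.63, 6.70 and 10.5 FPKM in siPrp19 samples. The adjusted p of SNRNP48 was 0.316 and that of SNRNP35 0.362 in limma with the block. Since 40.1% of the exon bases of SNRNP35 are exonic on the opposite strand too, chiefly in RILPL1, and no strand setting of the counting is given, reads of the 2 genes may not be told apart there.

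**Figure D3:**
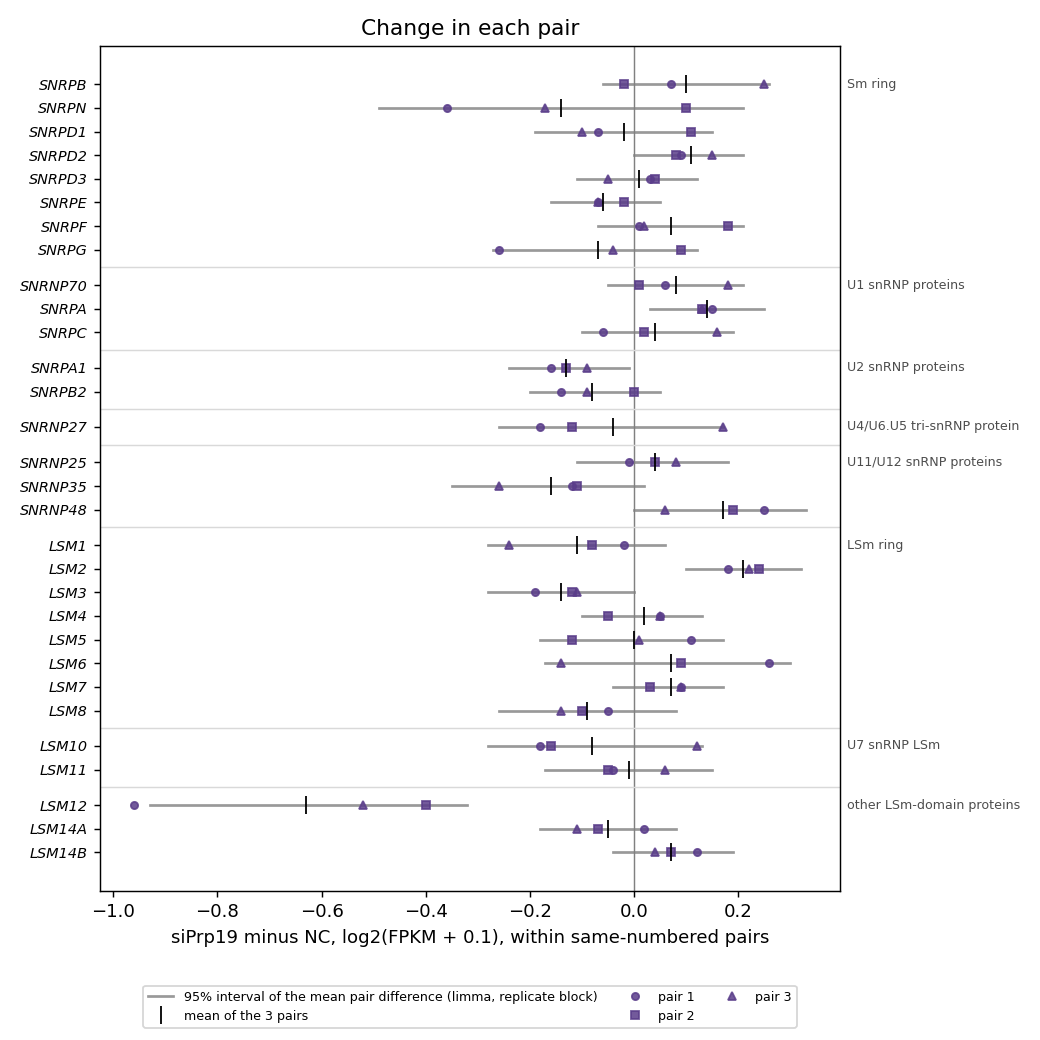
Difference siPrp19 minus NC on the log2(FPKM + 0.1) scale for each of the 3 same-numbered pairs (symbols), their mean (tick) and its 95% interval from limma with the replicate block (line). LSM12 lies at −0.96 to −0.40, while the means of the other 29 genes lie between −0.16 and 0.21.

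Pairs of members that are alike in sequence, or that share or exchange a place, were compared as log2 ratios of FPKM + 0.1. An exact two-sided permutation test over the 6 samples was used, in which 3 samples against 3 cannot give a p below 0.10. SNRPN relative to SNRPB was −4.99 ± 0.02 in NC and −5.23 ± 0.30 in siPrp19 samples (exact permutation p = 0.40, adjusted over 5 ratios 0.83). SNRPN made up 2.87% to 2.95% of the summed FPKM of both genes in NC and 2.19% to 3.13% in siPrp19 samples. These shares are per exon union. Per transcript length, SNRPN stood at 5.62 and SNRPB at 78.4 FPKM in NC, so the share depends on the length used. LSM1 relative to LSM8, the choice between the cytoplasmic and the nuclear ring, was compared per exon union. It was 1.18 ± 0.11 in NC and 1.16 ± 0.13 in siPrp19 samples (exact permutation p = 0.90). Per transcript length the order in NC was the reverse, with LSM1 at 15.1 and LSM8 at 21.2 FPKM. Of the exon bases of LSM1, 38.5% are exonic on the opposite strand too, chiefly in AC084024.3, so reads may not be told apart there. LSM1 itself had 7.84, 10.2 and 12.7 FPKM in NC and 7.74, 9.68 and 10.7 FPKM in siPrp19 samples. SNRPA relative to SNRPB2 was −0.25 ± 0.30 and −0.03 ± 0.38 (exact permutation p = 0.50), and LSM14A relative to LSM14B −0.40 ± 0.17 and −0.53 ± 0.14 (exact permutation p = 0.40). LSM14A had 21.5, 28.8 and 22.9 FPKM in NC and 21.8, 27.4 and 21.2 FPKM in siPrp19 samples, and LSM14B 32.5, 35.1 and 28.8 and then 35.2, 36.7 and 29.6 FPKM. This test takes no account of the pairs. Within pairs, the difference had 1 sign for SNRPA relative to SNRPB2 (0.29, 0.13 and 0.22) and for LSM14A relative to LSM14B (−0.09, −0.14 and −0.15), which 3 pairs are too few to test by permutation.

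The difference between replicates was larger than that between groups for many of the genes. Replicate 3 was the highest of its group in both NC and siPrp19 for 20 of the 30 genes (66.7%), beside 30.6% of all genes tested, and the lowest in both for 3 (10%), beside 27.7%. All 8 LSm ring genes and 6 of 8 Sm ring genes were among the 20, and in the other 2 Sm ring genes, SNRPE and SNRPN, replicate 3 was above the mean of replicates 1 and 2 in both groups too. Replicate 3 exceeded the mean of the other 2 by a median of 0.22 in NC and 0.28 in siPrp19 on the log2 scale over the Sm ring, and by 0.42 and 0.32 over the LSm ring, where the median of all genes tested was 0.01 and 0.02. SNRPG differed most within the Sm ring, by 0.73 and 0.78. The values on the first component and the level of DBH, given above, also set replicate 3 apart, and their part in these differences was not tested.

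The U7 pair split. LSM10 had 8.77, 7.90 and 15.6 FPKM in NC and 7.71, 7.04 and 16.9 FPKM in siPrp19 samples, with its highest value in replicate 3 of either group. LSM11, its partner in the U7 ring, had 6.69, 6.99 and 3.42 FPKM in NC and 6.49, 6.76 and 3.58 FPKM in siPrp19 samples, the lowest in replicate 3. Their log2 ratio was 0.39, 0.17 and 2.15 in NC and 0.24, 0.06 and 2.21 in siPrp19 samples, while its mean differed between the groups by −0.07 (exact permutation p = 0.80). SNRNP48 followed LSM11, with differences of −0.60 and −0.75 for replicate 3, and LSM14B was the third gene with its lowest value there in both groups.

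**Figure D4:**
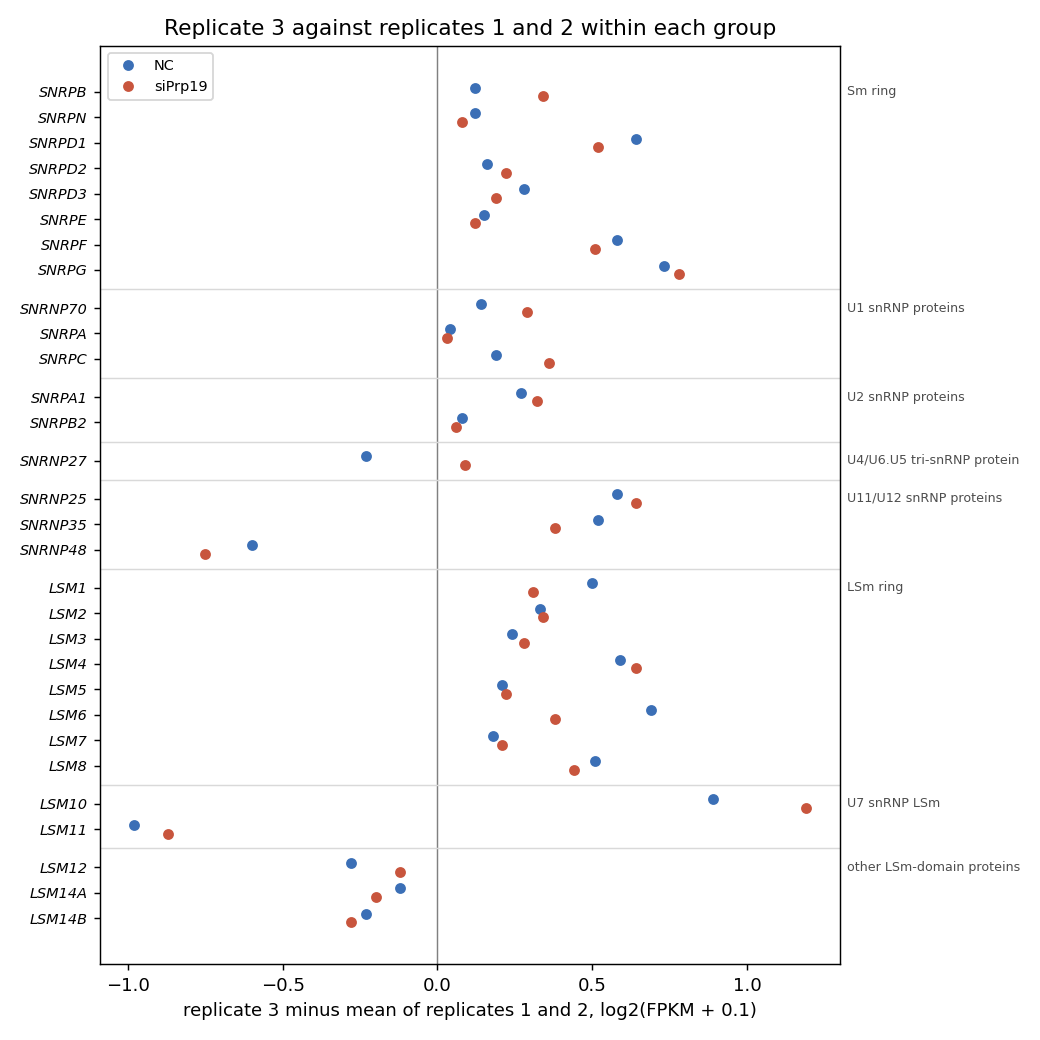
Replicate 3 minus the mean of replicates 1 and 2 on the log2(FPKM + 0.1) scale, in NC (blue) and siPrp19 (red), for each gene. All 16 ring genes lie to the right of 0 in both groups, LSM10 lies furthest to the right (0.89 and 1.19) and LSM11 furthest to the left (−0.98 and −0.87).

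The pathway around the core proteins was read from 57 genes of 8 groups, and each of them reached a mean of 1 FPKM. In limma without a block 0 were called, and 0 had an unadjusted p under 0.05. With the block, 0 were called and 9 had an unadjusted p under 0.05 (15.8%, beside 15.7% of all genes), and in limma voom with the block 6 were called (10.5%, beside 7.57% of all genes), 4 lower and 2 higher. By pairs, 13 of 57 were lower (22.8%, beside 21.3%) and 12 higher (21.1%, beside 19.2%) in 3 of 3, and their median log2 change was 0.00.

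CSTF2, a cleavage factor subunit that also takes part in histone mRNA processing, had the most negative change, from 12.3, 11.7 and 13.1 FPKM in NC to 7.57, 9.21 and 11.6 FPKM in siPrp19 samples (log2 change −0.40, SE 0.17; limma voom with block, adjusted p 0.00745). PHAX, the adaptor for snRNA export from the nucleus, went from 10.6, 13.7 and 11.6 to 8.20, 11.9 and 10.3 FPKM (−0.25, SE 0.18; limma voom adjusted p 0.0267). DDX6, a helicase that joins the LSm1-7 ring on mRNAs to be decapped, went from 25.6, 35.6 and 29.9 to 20.8, 33.5 and 26.7 FPKM (limma voom adjusted p 0.0261). All 3 genes were lower in each pair.

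SNAPC1 and SNAPC2, subunits of the factor that starts snRNA gene transcription, moved in opposite directions. SNAPC1 had 25.2, 35.0 and 9.16 FPKM in NC and 19.3, 32.3 and 6.71 FPKM in siPrp19 samples (limma voom adjusted p 0.0137), and SNAPC2 had 18.3, 20.7 and 12.9 FPKM in NC and 23.7, 21.6 and 17.0 FPKM in siPrp19 samples (limma voom adjusted p 0.0267). Without pair 1, CSTF2, PHAX, DDX6, SNAPC1 and SNAPC2 all lost the call, with adjusted p-values of 0.288 to 0.492 in limma voom with the block and log2 changes of −0.26, −0.19, −0.13, −0.23 and 0.21. PHAX lost it without pair 2 as well (adjusted p 0.106) and SNAPC2 without pair 3 (adjusted p 0.0673) in that limma voom fit. SMN1, the central protein of the complex that loads the Sm ring, was called as higher, but its 9.0, 6.05 and 7.17 FPKM in NC stood against 8.37, 5.87 and 20.9 FPKM in siPrp19 samples. The call rested on replicate 3 alone, and without that pair the log2 change was −0.07 (limma voom with block, adjusted p 0.795). SMN1 and SMN2 are near-identical genes, so their reads may be split between them arbitrarily. SMN2 was listed at 2.39, 2.02 and 1.95 FPKM in NC and 2.09, 2.08 and 1.81 FPKM in siPrp19 samples. The part of such a split in the SMN1 values was not tested.

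No gene was called in the methylosome, which methylates and loads Sm proteins, in U6 and 7SK RNA maturation or among the other U11/U12 proteins. The largest mean pair differences there were those of WDR77, a methylosome subunit, with 7.52, 6.09 and 13.1 FPKM in NC and 6.61, 4.59 and 12.3 FPKM in siPrp19 samples, of MEPCE, the 7SK capping enzyme, with 17.2, 26.6 and 16.2 and then 17.9, 27.6 and 17.7 FPKM, and of PDCD7, a U11 protein, with 11.8, 13.3 and 11.2 and then 14.1, 13.7 and 12.02 FPKM. In each of these genes the groups overlapped.

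**Figure D5:**
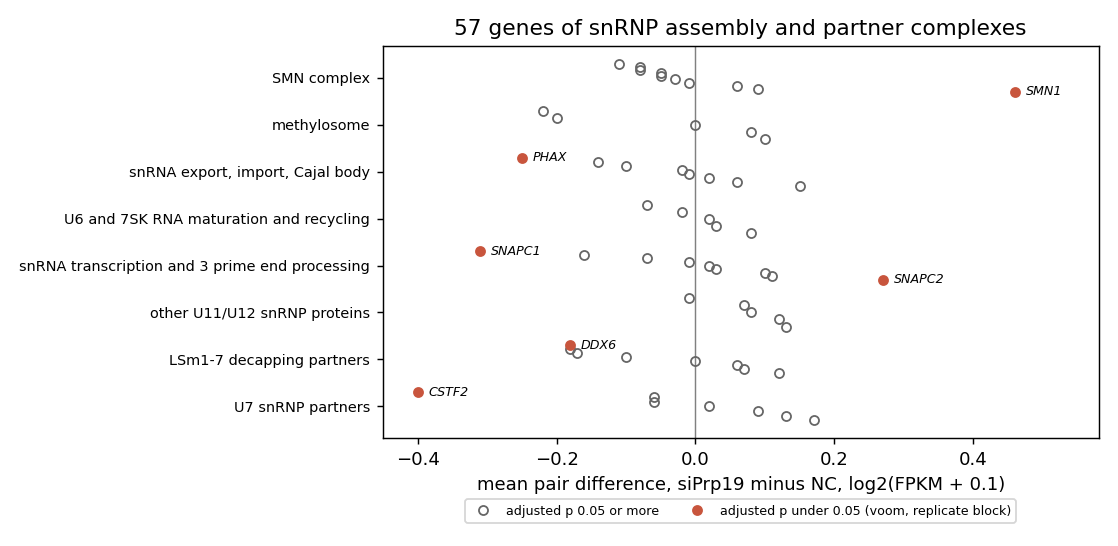
Mean pair difference siPrp19 minus NC on the log2(FPKM + 0.1) scale for 57 genes in 8 groups, with filled symbols for the 6 genes at an adjusted p under 0.05 in limma voom with the replicate block. CSTF2 lies at −0.40 and SMN1, which rests on 1 pair, at 0.46.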

How the data were processed

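The authors deposited 1 table per sample with FPKM values of 58302 Ensembl genes. The submitters' processing notes name HISAT2 2.0.5, featureCounts 1.5.0-p3 and hg38, and the handling of reads that fit several places and of strand is not given in the sources used here. The labels give 72 h of transfection and the paper's methods a shorter time. FPKM times GENCODE 29 exon length gave whole reads (within 0.05 read) in all samples for 95.9% of 37521 genes above 0, but not for LSM6 and SNRPN, which were rounded. Genes reaching a mean of 1 FPKM were tested on log2(FPKM + 0.1) with limma 3.58.1 (R 4.3.3; lmFit, eBayes with trend), without a block, with Benjamini-Hochberg adjustment over all genes tested. Fold changes on this scale understate those of low genes. The labels used here give replicate numbers and no stated pairing, and samples were paired by equal number. Deviations from the group means correlated at 0.381, 0.568 and 0.639 for equal numbers and at −0.532 to 0.045 for unequal ones. Since deviations are centred on each group, the unequal values are not independent of the equal ones. Fits with a replicate block and limma voom on the recovered reads were therefore added. The paper calls the replicates biological. P-values measure the spread between these samples, in limma joined with that of other genes, on which fits without a pair mainly rest. Python 3.11.15 and scipy 1.17.1 were used for exact tests. Scripts were tested on simulated data. Per-sample values were given for the 5 most negative and 5 most positive members, members called in any fit, the highest and lowest of each role and those of 5 ratios. From each partner group up to 3 called genes, or else the one with the largest change, were given. The genes, lists and tests were chosen with earlier results of these data known.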

Additional observations from a re-analysis of the deposited data

How the results depend on the processing

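The count of genes called was 0 in limma without a block under every scaling, filter and pseudocount tried and without each sample. It was also 0 in limma with the replicate block alone, with a pseudocount of 1 added or with correction for GC content and length. It was 124 with the replicate block and a mean of at least 5 FPKM, 1093 in limma voom with the replicate block, and 280, 633 and 1363 without pair 1, 2 and 3 in that fit. With the reads of LSM12P1 added to LSM12 these fits called 146 and 1095 genes. Of the members 1 gene, LSM12, was called in each fit that called any gene. Of the partner genes 6 were called in limma voom with the block (1 to 6 with a pair left out, 6 with the reads added). The median change of the members lay between −0.087 and 0.089 when 1 sample was left out. Higher in 3 of 3 pairs were 4 members after correction for GC content and length (21.1% of genes), against 8 (19.2%), and past a log2 difference of 0.1 in each pair 3 were lower (8.16% of genes) and 2 higher (7%), a limit chosen after seeing the data. The log2 change of 15 of 22 named members, none over 0.17 in size, changed sign in some setting. Correction for GC content and length, with or without the replicate block, gave 0.03 for SNRNP27, −0.03 for SNRNP25, −0.04 for LSM4 and 0.02 for LSM11 and LSM14A, and quantile normalization gave 0.01 for LSM11. With 1 sample or pair left out, the change ranged from −0.01 to 0.22 for SNRPB, −0.13 to 0.03 for SNRPE, −0.02 to 0.14 for SNRNP70, −0.17 to 0.04 for SNRPB2, −0.14 to 0.07 for SNRNP27 (−0.12 without NC replicate 3), −0.18 to 0.23 for SNRNP25, −0.30 to 0.01 for SNRNP35, −0.03 to 0.42 for SNRNP48, −0.29 to 0.05 for LSM1, −0.27 to 0.01 for LSM3, −0.20 to 0.21 for LSM4, −0.24 to 0.08 for LSM8, −0.47 to 0.22 for LSM10, −0.34 to 0.28 for LSM11 and −0.17 to 0.07 for LSM14A, whereas LSM12 stayed between −0.78 and −0.47. The replicate block by itself called no member (LSM12, limma with block, adjusted p 0.197). LSM12 was called only where the block was joined to the filter at 5 FPKM or to limma voom. The cause was not tested. Precision is limited by 3 samples a group and, for SNRPN with 115 to 169 reads, by counting too.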
